A study of Mus musculus with 8 samples.

Results

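The comparison concerned the cells named Myeloid in the annotation deposited with a CITE-seq survey of the aorta-gonad-mesonephros (AGM) region, the part of the mouse embryo where definitive blood first buds from arterial endothelium. Of 15168 cells, 2397 carried this name, or 15.8%, and all of them were used. They came from 8 libraries of CD31-positive cells at embryonic day 10.5. The 5 WT libraries held 282, 355, 35, 178 and 202 Myeloid cells (WT 1 to 5), and the 3 libraries of Meis1-flox/VE-Cre embryos held 299, 642 and 404 (Mff_Cre 1 to 3). By the labels WT embryos were of the C57BL/6 strain, and the others, of strain Meis1-flox/VE-Cre, had the genotype Meis1-knockout. In the latter, loxP sites flank exon 8 of Meis1 and Cre is driven by the promoter of VE-cadherin (Cdh5), so recombination takes place in endothelium and is inherited by the blood cells that descend from it. By the study's methods each library pooled 2 to 5 embryos. Strain as labelled and genotype cannot be told apart by this design, in WT 5 as in the other WT libraries. The deeper sequencing of WT 1 to 4 goes with both, and WT 5 alone bears on depth. WT 5 differed from WT 1 to 4 in more than depth. Its cell names start with Mf_, which no label explains, and the antibody tag for CD44 was counted in it and in Mff_Cre alone. In its deletion experiments the paper uses the name WT for Meis1-flox littermates without Cre. Whether WT 5 came from such embryos is not stated.

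Myeloid cells of the midgestation embryo comprise macrophages, many of which descend from erythro-myeloid progenitors (EMP) of the yolk sac, and precursors of granulocytes and monocytes, which make the granule proteins that kill microbes. Yolk sac progenitors pass through an endothelial stage, so a Cre under an endothelial promoter can reach them as well as the blood that forms in the AGM. Meis1 is a TALE homeodomain transcription factor that partners Pbx and Hox proteins, is high in stem and progenitor cells and is shut down as myeloid cells mature.

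Myeloid cells carried the RNA of the cells they were named for. The summed level of 10 macrophage markers ranged from 1640 to 3499 counts per 1000000 (CPM) in WT and from 2368 to 3037 CPM in Mff_Cre, against 2.36 to 24.4 CPM in venous-type endothelial cells of the same libraries (vEC, the clusters vEC_1 to vEC_4). CPM are UMIs, the tagged RNA molecules that were counted, relative to the TMM-scaled total of the summed Myeloid cells of a library. Myeloid sums held 1792495 to 15970135 UMIs. Per Myeloid cell the median was 42006 to 54523 UMIs in WT 1 to 4. In WT 5 it was 25064, and Mff_Cre 1 to 3 had 22863, 14824 and 25090. WT 5 was thus the sole WT library near the depth of the Mff_Cre libraries, and the fits in Myeloid cells and within gates were made with all 5 WT libraries and with WT 5 alone. No barcode was shared among Myeloid cells of different libraries (0 of 2397). Some further marker sums did not overlap between genotypes. The sum of 6 later granulocyte markers was 0 to 289 CPM in WT and 525 to 828 CPM in Mff_Cre, and that of 6 granulocyte and monocyte precursor markers 480 to 995 against 1232 to 1553 CPM. The sum of 11 mast cell and basophil markers was 5.18 to 26.7 against 27.5 to 41.3 CPM, with Mcpt4, Tpsb2, Tpsab1, Cma1 and Prss34 at 0 UMIs. WT 5 held the 26.7 CPM, close to the lowest Mff_Cre library, and 1 of 3 markers tested was called with 5 WT libraries. In vEC this sum was 15.2 to 21.9 CPM in WT and 20.2 to 22.8 CPM in Mff_Cre. Sums of endothelial markers, at 127 to 560 CPM in WT and 290 to 386 CPM in Mff_Cre, overlapped between genotypes, as did erythroid markers at 15.6 to 2074 and 206 to 494 CPM. WT 5 held the highest endothelial sum, 560 CPM, and an erythroid sum of 56.9 CPM, below every Mff_Cre library. Against WT 5 alone 4 of 12 endothelial markers were called lower in Mff_Cre, with 12 of 12 lower (median log2 fold change -0.66), and 4 of 9 erythroid markers were called higher (median 2.36). The part of such cells or of their free RNA in the results against WT 5 was not tested. Megakaryocyte sums of 64.5 to 137 against 66.6 to 136 CPM, progenitor sums of 195 to 348 against 272 to 295 CPM, mesenchymal sums of 1.73 to 8.16 against 5.10 to 15.4 CPM and lymphoid sums of 64.1 to 79.5 against 72.2 to 106 CPM overlapped too. The overlap of the progenitor sums came from WT 5, at 348 CPM. WT 1 to 4, at 195 to 249 CPM, lay below every Mff_Cre library. The median log2 fold change of the 9 progenitor markers was -0.07 with 5 WT libraries, with 4 higher. Against WT 5 it was -0.73, with 1 higher. Lower RNA per cell and fewer cells of a type cannot be told apart in such sums.

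Meis1 was low in these cells and lower in Mff_Cre. It stood at 17.9, 12.6, 23.6, 19.5 and 27.4 CPM in WT 1 to 5, while Mff_Cre 1 to 3 had 7.98, 13.4 and 10.9 CPM. WT 2 lay within the range of the Mff_Cre libraries, and the other WT libraries lay above it. The log2 fold change was -0.86 (SE 0.25) with 5 WT libraries, which missed the threshold (edgeR's quasi-likelihood test, Benjamini-Hochberg adjusted p 0.135, threshold 0.1). Against WT 5 alone it was -1.31 (SE 0.25, adjusted p 0.0361). Without WT 2 or without WT 5 the 8-library value was -1.01 or -0.69 and passed, as did that by DESeq2 (-0.88, adjusted p 0.0316), with the macrophage-gated share as covariate (-1.04), with an equal gate mix (-0.89) and without a filter (-0.84). Against WT 5 the call was lost with thinned cells (-1.09) and with equal cell numbers (-0.51). UMIs come from the 3′ ends of transcripts and do not read the loss of exon 8, so this level is no measure of recombination. An RNA row named CreERT2 held 0 UMIs in the WT libraries and 12, 3 and 19 UMIs in Mff_Cre 1 to 3, only 2 of them in Myeloid cells.

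Across all 11479 genes tested with 5 WT libraries, 374 were called (3.26%), 170 higher in Mff_Cre (1.48%) and 204 lower (1.78%). With WT 5 alone 253 of 11774 genes were called (2.15%), 191 higher (1.62%) and 62 lower (0.527%). Of the 374 genes called with 5 WT libraries, 298 were not called against WT 5, and in 113 WT 5 lay nearer to the mean of Mff_Cre than to that of WT 1 to 4. The imbalance was on the side of the falls: 90 of these 113 genes were lower in Mff_Cre. Called in the same direction in both comparisons were 76 genes (0.667%), 51 higher (0.448% of 11389 genes tested in both) and 25 lower (0.22%). The comparisons share WT 5 and the Mff_Cre libraries, so the 76 are genes that hold in 2 readings of the same libraries and not a replication. Against WT 5, DESeq2 called 42 of the 51 rises and 15 of the 25 falls, and gave no adjusted p for 2 of the falls. In all 76 the WT and Mff_Cre values did not overlap, against 10.3% of all genes tested, 5.18% higher and 5.14% lower. The 76 were chosen by tests on these same values, so their lack of overlap is a description and adds no support. Leaving out Mff_Cre 1, 2 or 3 reduced the calls with 5 WT libraries from 374 to 44, 139 or 94, leaving out WT 1, 2 or 4 to 201, 217 or 183, and leaving out WT 5 raised them to 1421. The genes called in both comparisons numbered 37 without Mff_Cre 1. Depth moved with genotype, and with each library's median depth per cell as covariate 3 of the 51 rises (Lcn2, Cfp and Camp) and 0 of the 25 falls were called, all 76 keeping their sign. With every cell thinned to 5000 UMIs before summing, 27 of 42 rises tested and 16 of 21 falls tested were called with 5 WT libraries. All of those tested kept their sign.

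**Figure D1:**
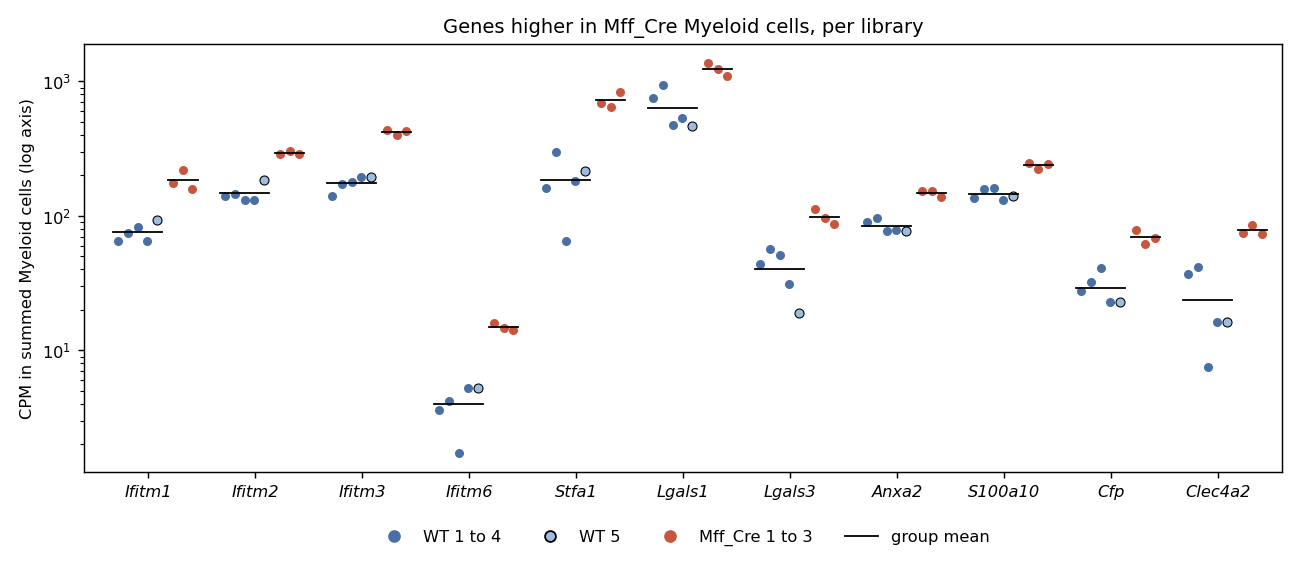
CPM (log axis) in the summed Myeloid cells of each library for 11 genes higher in Mff_Cre, with 1 point per library and lines at the group means. Every Mff_Cre point lies above every WT point of the same gene, the light blue WT 5 points included. The genes were picked from those called in both comparisons, so the gap is a description.

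Genes of 4 interferon-induced transmembrane (Ifitm) proteins, Ifitm1, Ifitm2, Ifitm3 and Ifitm6, were called higher in both comparisons. Ifitm proteins are small membrane proteins that hinder the entry of viruses, and several are also expressed without interferon in embryonic and progenitor cells. Ifitm3 stood at 140, 173, 178, 195 and 194 CPM in WT 1 to 5, while Mff_Cre 1 to 3 had 437, 399 and 425 CPM. Its log2 fold change was 1.26 (SE 0.12, edgeR adjusted p 0.0014), and 1.14 (SE 0.17, adjusted p 0.0115) against WT 5. WT 5 thus lay with the other WT libraries and the groups were far apart. Ifitm2 stood at 141, 146, 131, 132 and 186 CPM in WT and 291, 304 and 290 CPM in Mff_Cre, a log2 fold change of 1.00 (SE 0.12, adjusted p 0.00628). For Ifitm2 WT 5 was the highest WT library, and the value against it was 0.69 (SE 0.16, adjusted p 0.076). Ifitm1 stood at 64.6, 74.5, 82.4, 64.8 and 92.6 CPM in WT and 176, 219 and 159 CPM in Mff_Cre, with log2 fold changes of 1.29 (SE 0.14, adjusted p 0.00541) and 1.02 (SE 0.21, adjusted p 0.043). Ifitm6, at 1.73 to 5.29 CPM in WT and 14.2 to 16 CPM in Mff_Cre, rose by 1.80 (SE 0.20, adjusted p 0.00541) and 1.52 (SE 0.26, adjusted p 0.0201). All 4 kept their call with 5 WT libraries when any 1 library was left out. Against WT 5, Ifitm2 lost it without Mff_Cre 1 (log2 fold change 0.70, adjusted p 0.102).

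The share of Myeloid cells with an Ifitm3 UMI was higher too. Such a share cannot tell more cells with Ifitm3 from more Ifitm3 RNA per cell. After each cell had been thinned to 5000 UMIs, 34.3% to 42.8% of Myeloid cells in WT libraries held an Ifitm3 UMI and 66.3% to 76.6% in Mff_Cre libraries. In vEC, where the same thinning left 25.4% to 31.0% in WT and 28.4% to 31.1% in Mff_Cre, no such gap was seen. The log2 fold change of Ifitm3 in vEC was 0.02 (SE 0.09), and the difference between Myeloid cells and vEC in that change was 1.27 (SE 0.07, adjusted p 4.81e-06). For Ifitm2 this difference was 0.81 (SE 0.11, adjusted p 0.00694), and for Ifitm1 0.42 (SE 0.32, adjusted p 0.683).

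The Ifitm genes lie in a cluster on chromosome 7, and the promoters of Ifitm2 and Ifitm3 are shown because both genes rose and the promoters share sequence, although Ifitm1 lies between them. The 250 bases before the start of each gene are from RefSeq (GRCm38.p6, the build that the submitters name as mm10), on the minus strand at chr7:140955962-140956211 for Ifitm2 and chr7:141010745-141010994 for Ifitm3. Capitals mark the 3 stretches of at least 10 bases that occur in both, 32 bases in each promoter.
Ifitm2: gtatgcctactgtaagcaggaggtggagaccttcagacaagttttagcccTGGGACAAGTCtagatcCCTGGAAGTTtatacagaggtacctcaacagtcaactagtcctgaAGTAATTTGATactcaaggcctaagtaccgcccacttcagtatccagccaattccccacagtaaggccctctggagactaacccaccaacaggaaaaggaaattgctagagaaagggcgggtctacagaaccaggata
Ifitm3: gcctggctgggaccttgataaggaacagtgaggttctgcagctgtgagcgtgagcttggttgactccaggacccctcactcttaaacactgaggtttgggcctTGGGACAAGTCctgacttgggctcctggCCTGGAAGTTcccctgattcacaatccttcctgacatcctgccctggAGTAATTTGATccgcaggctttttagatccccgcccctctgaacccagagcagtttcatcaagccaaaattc
Of the shared stretches, TGGGACAAGTC occurs on either strand in 11 of 32851 promoters of that length. The promoters of Ifitm1, between these genes, and of Ifitm6 shared no stretch of 10 bases with these or with each other. A shared stretch is a description of sequence and no evidence of a binding site.

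Other interferon-induced genes were not called with 5 WT libraries. Of 29 other interferon-induced genes in the table, such as Isg15 and Irf7, 27 were tested, and 0 were called by edgeR or by DESeq2, with 2 higher and 2 lower at an unadjusted p under 0.05 (median log2 fold change -0.06, against -0.01 over all genes tested). Against WT 5 alone 1 rose, with a median of 0.38 against 0.02 over all genes. Ly6e, a GPI-anchored protein that interferon also induces, rose by 0.73 (SE 0.13, adjusted p 0.0309) with 5 WT libraries, from 225 to 318 CPM in WT to 355 to 481 CPM in Mff_Cre. Against WT 5, the highest WT library for this gene, it stood 0.45 higher (SE 0.19, adjusted p 0.404), and without Mff_Cre 1 or 2 the 8-library value of 0.70 or 0.63 missed the threshold. Against WT 5 it passed without Mff_Cre 3 (0.54, adjusted p 0.00956).

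Some granule genes and stefins rose next to the Ifitm family. Of 26 granule genes, 18 were tested with 5 WT libraries, of which 8 rose and 1 fell (median 1.09). With WT 5 alone 9 of 20 rose and 1 fell (median 1.60), and 7 rose in both comparisons. These 7 were Mpo, Ms4a3, Camp, Lcn2, Mmp9, Lyz2 and Ifitm6, the last also counted with the Ifitm genes above. Mpo, the myeloperoxidase of primary granules, stood at 131, 176, 212, 203 and 191 CPM in WT 1 to 5 and 428, 440 and 358 CPM in Mff_Cre 1 to 3. Its log2 fold change was 1.17 (SE 0.15, adjusted p 0.00646) and 1.12 (SE 0.19, adjusted p 0.0195) against WT 5, and it kept its call without any 1 library. Lyz2, the lysozyme of macrophages and granulocytes, stood at 421, 417, 408, 319 and 210 CPM in WT and 689, 745 and 564 CPM in Mff_Cre. WT 5 was its lowest library, so the log2 fold change grew from 0.91 (SE 0.21, adjusted p 0.0571) to 1.69 (SE 0.21, adjusted p 0.00365). With 5 WT libraries Lyz2 missed the threshold without Mff_Cre 1, 2 or 3 or WT 4 (0.82 to 1.01, adjusted p up to 0.245). Ms4a3, a membrane protein of granulocyte and monocyte precursors, stood at 5.76, 14.0, 1.73, 5.17 and 17.7 CPM in WT and 61.6, 34.4 and 38.6 CPM in Mff_Cre (log2 fold change 2.22, SE 0.41, adjusted p 0.0309). Without Mff_Cre 1 or 3 it was 1.94 or 2.32 and missed the threshold.

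Stfa1, an intracellular inhibitor of cysteine proteases, was the leading stefin. It stood at 160, 298, 65.1, 181 and 216 CPM in WT 1 to 5 and 688, 642 and 838 CPM in Mff_Cre 1 to 3, and the groups did not overlap. The log2 fold change was 1.96 (SE 0.33, adjusted p 0.0216) and 1.77 (SE 0.21, adjusted p 0.00365) against WT 5. Without Mff_Cre 1 or 3 the 8-library value was 2.00 or 1.84 and narrowly missed the threshold (adjusted p 0.103 and 0.102). A Stfa1 UMI was found in 5.71% to 23.9% of thinned WT cells and 48.0% to 56.4% of Mff_Cre cells, and in 0% to 0.675% and 1.08% to 2.12% of vEC. Of 10 stefins and cystatins tested, 4 rose and 0 fell with 5 WT libraries (median 1.72), and 6 rose and 0 fell against WT 5 (median 1.92). DESeq2 called 2 and 7 of them higher, and Stfa2l1 missed its threshold with 5 WT libraries (adjusted p 0.432). The stefin genes are a cluster of near-identical copies on which UMIs may be split, so values of single members are uncertain. Stfa2l1, 1 of these copies, was called in both comparisons, at 0 to 3.04 CPM in WT and 8.24 to 12.6 CPM in Mff_Cre. With 5 WT libraries its call was lost without WT 1, 3 or 4 or any Mff_Cre library (log2 fold change 2.43 to 3.05).

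Genes of late granules were carried by few cells. Camp (cathelicidin) held 0, 1, 0, 0 and 0 UMIs in WT 1 to 5, and 55, 45 and 186 UMIs in 5, 3 and 2 cells of Mff_Cre 1 to 3. Lcn2 (lipocalin) held 1, 1, 0, 0 and 0 UMIs in WT and 45, 30 and 48 UMIs in 7, 8 and 2 cells of Mff_Cre. Of the UMIs of Camp, Lcn2, Ngp and Ltf together, a single cell held 110 of 131, 178 of 204 and 232 of 238 in Mff_Cre 1 to 3. Both genes were called in both comparisons, but their fitted folds rest on these cells and are not given. S100a8, a subunit of calprotectin, showed how uneven WT was: it stood at 191 and 177 CPM in WT 1 and 2, with 0, 0.24 and 18.9 CPM in the other WT libraries, whereas Mff_Cre 1 to 3 had 499, 435 and 284 CPM. It stood 2.32 higher on the log2 scale with 5 WT libraries (SE 1.10, adjusted p 0.345) and 4.45 higher (SE 0.36, adjusted p 0.000426) against WT 5 alone.

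Counted as cells, 1.12% ± 0.907 (SD, n = 5) of WT and 9.73% ± 2.90 (SD, n = 3) of Mff_Cre Myeloid cells held a UMI of S100a8, S100a9, Ltf, Camp, Ngp or Lcn2 after thinning (two-sided exact permutation p 0.0179, the smallest that 5 against 3 libraries allow). The WT libraries stood at 1.77%, 2.25%, 0%, 0.562% and 0.995%, and Mff_Cre at 13%, 8.46% and 7.67%. In vEC, which should lack these genes, the share was 0% to 0.330% in WT and 1.08% to 1.68% in Mff_Cre, with every vEC thinned alike. The part of free RNA in the Myeloid share was not tested. Cells with 10 or more such UMIs numbered 3, 5, 0, 0 and 0 in WT and 12, 16 and 5 in Mff_Cre. As shares these were 1.06%, 1.41%, 0%, 0% and 0% against 4.01%, 2.51% and 1.24%. WT 2 lay above Mff_Cre 3, so the groups overlapped at this level. Every call was repeated without all cells that held such a UMI before thinning. Of the 51 rises 46 of the 48 still tested were called with 5 WT libraries and 32 against WT 5, and of the 25 falls 24 and 22, so that 52 of the 76 genes remained called in both. Stfa1 (2.05 and 1.96), Ifitm3 (1.21 and 1.05), Ifitm6 (1.78 and 1.42), Mpo (0.97 and 0.88) and Lyz2 (0.78 and 1.5) kept both calls. Ifitm1 (0.83, adjusted p 0.193) and Ifitm2 (0.64, adjusted p 0.124) lost that against WT 5, as did Ms4a3 (0.69, adjusted p 0.322). Camp, Lcn2 and Stfa2l1 could no longer be tested.

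**Figure D2:**
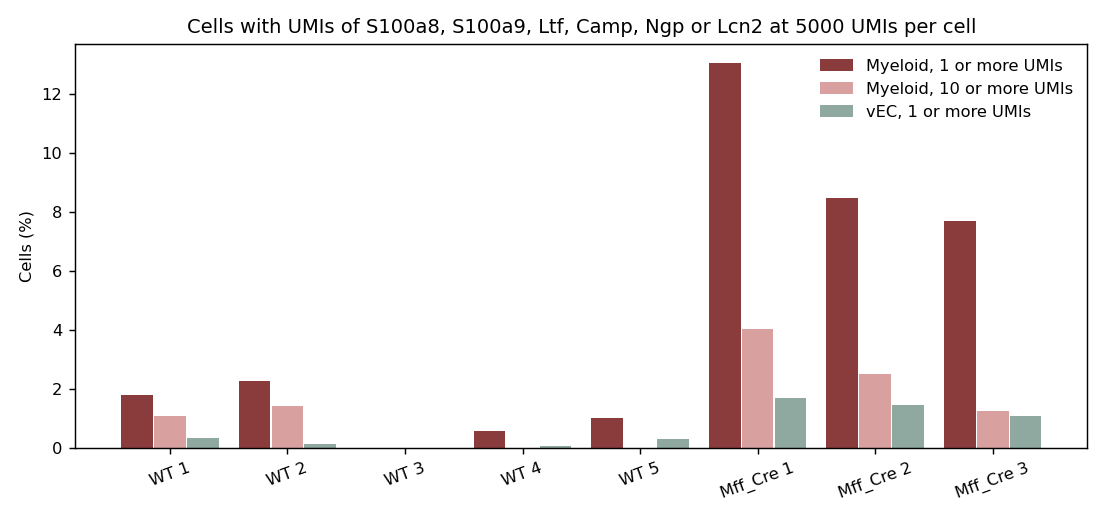
Percentage of cells with UMIs of 6 late granule genes (S100a8, S100a9, Ltf, Camp, Ngp, Lcn2) in each library, for Myeloid cells at 1 or more and at 10 or more UMIs and for vEC at 1 or more, with every cell thinned to 5000 UMIs. The Mff_Cre bars reach 7.67% to 13% for Myeloid cells and 1.08% to 1.68% for vEC.

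Lgals1, Lgals3, S100a10 and 2 of 8 annexins, Anxa2 and Anxa6, were called higher in both comparisons, at log2 fold changes from 0.72 for S100a10 to 2.39 for Lgals3. Lgals1 (galectin-1), a secreted lectin named here after its values were seen, stood at 753, 940, 476, 535 and 468 CPM in WT 1 to 5 and 1360, 1239 and 1104 CPM in Mff_Cre 1 to 3. Lgals3 (galectin-3) stood at 43.9, 56.9, 51.3, 30.9 and 19 CPM in WT and 112, 96.5 and 86.6 CPM in Mff_Cre. For both, WT 5 was the lowest library, and the log2 fold change was larger against WT 5 (1.42, SE 0.19, and 2.39, SE 0.22) than with 5 WT libraries (0.96, SE 0.22, adjusted p 0.0603, and 1.29, SE 0.27, adjusted p 0.0452). With 5 WT libraries the call of each was lost without WT 4 or any Mff_Cre library, and that of Lgals1 also without WT 3 (0.87 to 1.03 for Lgals1 and 1.19 to 1.38 for Lgals3). With cells thinned to 5000 UMIs before summing, Lgals3 lost the 8-library call as well (0.69, edgeR adjusted p 0.555). Anxa2 and S100a10, which bind each other at the inner face of membranes, were steadier. Anxa2 stood at 76.6 to 97.3 CPM in WT and 139 to 154 CPM in Mff_Cre, with log2 fold changes of 0.82 (SE 0.10, adjusted p 0.00646) and 0.96 (SE 0.17, adjusted p 0.0215). S100a10 stood at 132 to 161 CPM in WT and 225 to 249 CPM in Mff_Cre, with 0.72 (SE 0.10, adjusted p 0.00969) and 0.79 (SE 0.16, adjusted p 0.0497). Neither lost its call without any 1 library. Anxa6 rose by 0.83 and 0.99 in the 2 comparisons, with 0.68 to 0.93 and no call without any 1 of the Mff_Cre libraries. Of 16 S100 proteins and annexins tested, 5 rose and 0 fell with 5 WT libraries (median 0.55), 8 rose and 0 fell against WT 5 (median 0.88), and 3 rose in both.

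Among secreted and surface proteins, Cfp (properdin), the positive regulator of the alternative complement pathway, stood at 27.4, 32.2, 40.9, 22.8 and 22.8 CPM in WT 1 to 5 and 78.7, 62.1 and 68.7 CPM in Mff_Cre 1 to 3. Its log2 fold change was 1.30 (SE 0.17, adjusted p 0.00673) and 1.64 (SE 0.21, adjusted p 0.00408), and it kept its call without any 1 library. It was the sole gene of 26 complement genes called in both comparisons, with 1 of 16 tested higher with 5 WT libraries (median 0.11) and 5 of 17 against WT 5 (median 0.46). Clec4a2, an inhibitory C-type lectin, stood at 37.1, 41.6, 7.49, 16.2 and 16.3 CPM in WT and 75.1, 85.7 and 73.0 CPM in Mff_Cre (1.60, SE 0.36, adjusted p 0.0541, and 2.28, SE 0.20, adjusted p 0.000522). WT 1 and 2 were the highest of the WT libraries, and the 8-library call was lost without WT 4 or any Mff_Cre library (1.47 to 1.65). Of its cluster of lectins 1 of 6 rose with 5 WT libraries (median 0.78) and 4 of 6 against WT 5 (median 2.27).

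Cd63, a tetraspanin of late endosomes and granules, rose from 124 to 216 CPM in WT to 288 to 344 CPM in Mff_Cre (log2 fold change 0.81, SE 0.16, adjusted p 0.0369, and 0.93, SE 0.17, adjusted p 0.0306). Lpl, the lipoprotein lipase, rose from 190 to 327 CPM to 444 to 546 CPM (0.89, SE 0.17, adjusted p 0.0309, and 0.91, SE 0.18, adjusted p 0.0414). Cd63 lost the 8-library call without any 1 of the Mff_Cre libraries (0.75 to 0.87) and Lpl without Mff_Cre 1 or 2 (0.81 and 0.90). The mitochondrial carrier Ucp2 (0.96, SE 0.12, adjusted p 0.00628, and 0.74, SE 0.17, adjusted p 0.0769), the transcription factor Tfec (0.75, SE 0.10, and 0.72, SE 0.18) and the antiapoptotic Bcl2a1a (1.48, SE 0.22, and 1.45, SE 0.36) held with 5 WT libraries without any 1 of them, and Tfec without Mff_Cre 1 (0.69) and Bcl2a1a without Mff_Cre 2 (1.39) missed the threshold against WT 5. The plasma glutathione peroxidase Gpx3 (1.18 and 1.5), the shared beta chain of the receptors for GM-CSF, IL-3 and IL-5, Csf2rb (0.88 and 0.92), and the sialic acid receptor Siglece (1.13 and 1.29) were called in both comparisons. With 5 WT libraries these 3 missed the threshold without at least 1 Mff_Cre library: Gpx3 without any of them or WT 4 (1.09 to 1.28), Csf2rb without Mff_Cre 1 or 2 (0.83 and 0.84), and Siglece without 2 or 3 (1.02 and 1.12). Csf2ra, the GM-CSF receptor alpha chain, rose with 5 WT libraries (1.14, SE 0.16, adjusted p 0.0119) and stood 0.77 higher against WT 5 (SE 0.24, adjusted p 0.191), where it passed the threshold without Mff_Cre 1 (0.80) or 3 (0.87).

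Cpa3, a carboxypeptidase of mast cells and early progenitors, stood at 0.657 to 5.29 CPM in WT and 9.41 to 19.2 CPM in Mff_Cre, and Mmp9, a gelatinase of late granules and of some macrophages, at 0.219 to 1.61 and 5.56 to 11.2 CPM. Cpa3 UMIs lay in 14, 34 and 22 cells of Mff_Cre 1 to 3, with at most 24, 75 and 45 in 1 cell, and Mmp9 UMIs in 30, 39 and 35 cells. Their log2 fold changes were 2.79 (SE 0.46, adjusted p 0.0191) and 3.06 (SE 0.45, adjusted p 0.0125) with 5 WT libraries, and both genes were also called against WT 5. Pglyrp1, a peptidoglycan-binding granule protein named after its values were seen, rose from 0.576 to 2.29 CPM to 10.1 to 17.4 CPM (2.87, SE 0.28, adjusted p 0.00183, and 2.54, SE 0.44, adjusted p 0.0218). Without cells that held late granule UMIs, Cpa3 (2.77) and Mmp9 (2.94) kept their calls and Pglyrp1 (1.52, adjusted p 0.111) did not. Mast cell markers other than Cpa3 were low or at 0 UMIs, as given with the marker sums, and their part in the rise of Cpa3 was not tested.

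**Figure D3:**
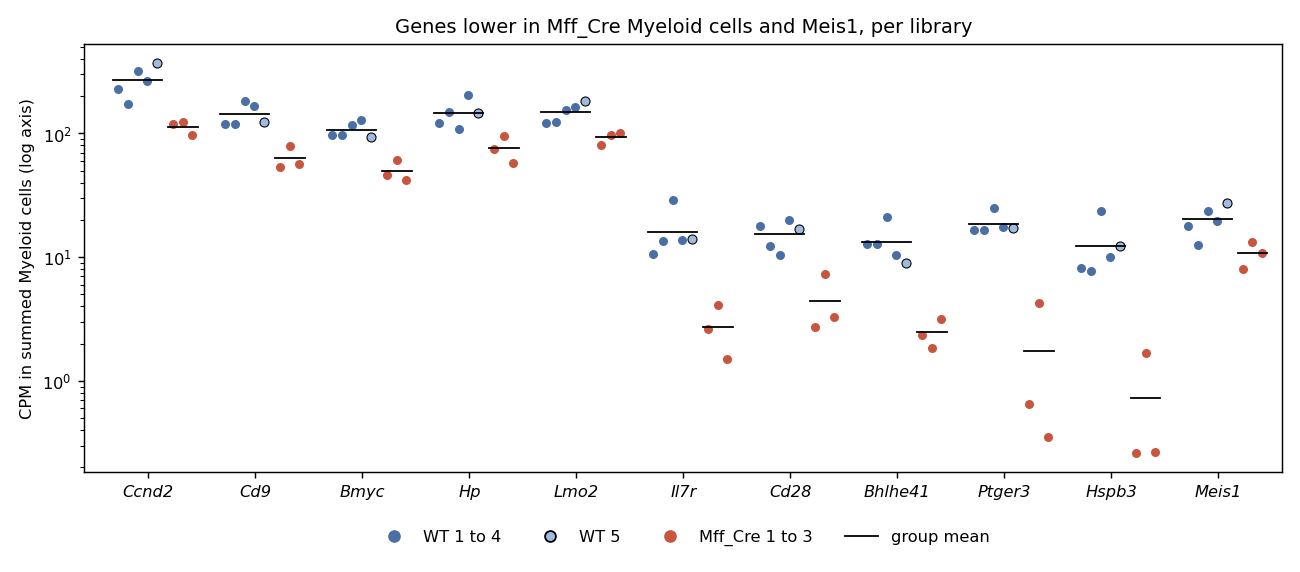
CPM (log axis) in the summed Myeloid cells of each library for 10 genes lower in Mff_Cre and for Meis1, with 1 point per library and lines at the group means. Every Mff_Cre point of the 10 genes lies below every WT point, whereas for Meis1 the WT 2 point lies within the Mff_Cre range. The 10 genes were picked from those called in both comparisons, so their gap is a description.

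Fewer genes fell in both comparisons, and they were of several kinds. Ccnd2, the D-type cyclin that couples growth signals to the cell cycle, stood at 230, 174, 319, 267 and 368 CPM in WT 1 to 5 and 118, 123 and 96.9 CPM in Mff_Cre 1 to 3. WT 5 was its highest library, and the log2 fold change went from -1.26 (SE 0.22, adjusted p 0.0223) to -1.68 (SE 0.16, adjusted p 0.000847). Of 30 genes of G2 and M phase 1 rose and 1 fell with 5 WT libraries, where 4 of 30 stood higher (median -0.19) and 10 were lower and 1 higher at an unadjusted p under 0.05. Against WT 5 their median was -0.05, and 0 were called by edgeR or DESeq2, with 1 higher at an unadjusted p under 0.05. Of 30 S phase genes 0 were called by either tool in either comparison (medians 0.04 and 0.04), with 2 higher, and against WT 5 1 higher and 1 lower, at an unadjusted p under 0.05. Cd9, a tetraspanin, fell from 119 to 184 CPM to 54.0 to 79.1 CPM (-1.16, SE 0.19, adjusted p 0.0165, and -0.95, SE 0.20, adjusted p 0.0533). Bmyc, a Myc relative, fell from 94.5 to 129 CPM to 42.0 to 61.1 CPM (-1.09, SE 0.15, adjusted p 0.0106, and -0.90, SE 0.20, adjusted p 0.0613), and alone of these 3 kept the 8-library call without any 1 library. Ccnd2 and Cd9 lost it without Mff_Cre 1 (-1.30 and -1.06) or 3 (-1.17 and -1.09).

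Hp (haptoglobin), which binds free hemoglobin, was the granule gene that went the other way, from 121, 150, 109, 205 and 146 CPM in WT to 74.9, 96.0 and 58.2 CPM in Mff_Cre. Its log2 fold change was -0.94 (SE 0.21, adjusted p 0.0556) and -0.91 (SE 0.22, adjusted p 0.0922), with no 8-library call without Mff_Cre 1 or 3 or WT 2 (-0.93 to -0.78). Of the stem and progenitor factors, Lmo2, an adaptor of GATA and SCL complexes, fell from 122 to 182 CPM to 81.1 to 102 CPM (-0.68, SE 0.15, adjusted p 0.0517, and -0.94, SE 0.16, adjusted p 0.0219), again with no call without Mff_Cre 1, 2 or 3 or WT 4 (-0.75 to -0.59). Of the 28 Meis1 partners and stem cell factors tested 0 rose and 3 fell in each comparison, and Lmo2 was the 1 gene shared. The other 2 with 5 WT libraries were Flt3, a cytokine receptor of progenitors (-3.46, SE 0.66, adjusted p 0.0321), and Runx1 (-0.43, SE 0.10, adjusted p 0.0538), at -3.17 (adjusted p 0.212) and -0.33 (adjusted p 0.427) against WT 5, where Flt3 passed with any pair of Mff_Cre libraries (-5.24 to -2.73). The 8-library call of Flt3 was lost without Mff_Cre 1 or 3 (-3.03 and -3.02), and that of Runx1 without WT 1 or 4 or any Mff_Cre library (-0.45 to -0.40). Over the 28 Meis1 partners and stem cell factors the median log2 fold change was 0.17 with 5 WT libraries, where 17 stood higher. Against WT 5 it was -0.61, with 5 higher, so the median changed sign. Bhlhe41, a helix-loop-helix transcriptional repressor, fell from 9 to 21.3 CPM to 1.85 to 3.18 CPM (-2.34, SE 0.29, adjusted p 0.00646, and -1.83, SE 0.36, adjusted p 0.0375) and kept its call without any 1 library. Ctr9, of the Paf1 transcription elongation complex, fell by 0.61 and 0.72 on the log2 scale, and missed the 8-library threshold without Mff_Cre 1 or 2 (-0.58 and -0.57).

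Low genes with the largest falls were named after their values were seen, apart from Il7r. Il7r, the IL-7 receptor that marks fetal monocytes and lymphoid progenitors, stood at 10.6, 13.4, 28.8, 13.7 and 13.9 CPM in WT and 2.62, 4.08 and 1.5 CPM in Mff_Cre (-2.44, SE 0.37, adjusted p 0.0147, and -2.32, SE 0.40, adjusted p 0.0208). Ptger3, a prostaglandin E2 receptor, stood at 16.6 to 24.8 CPM in WT and 0.353 to 4.27 CPM in Mff_Cre (-3.30, SE 0.53, adjusted p 0.0165, and -3.22, SE 0.69, adjusted p 0.0546). Hspb3, a small heat shock protein, stood at 7.68 to 23.6 CPM and 0.262 to 1.67 CPM (-3.84, SE 0.57, adjusted p 0.0125, and -3.95, SE 0.60, adjusted p 0.0124). By DESeq2, Ptger3 (adjusted p 0.864) and Hspb3 (adjusted p 0.333) missed the threshold against WT 5. Each of these genes was lower in every Mff_Cre library than in any WT library, WT 3 being the highest of all. Serpinb2, an inhibitor of plasminogen activators (-3.76 and -3.84), Cd28 (-1.81 and -1.87), the transcription factor Bcl11a (-0.87 and -1.13) and the RNA-binding protein Igf2bp2 (-1.03 and -1.35) fell in both comparisons. Without Mff_Cre 1 the 8-library call was lost for Il7r (-2.42), Ptger3 (-2.98), Serpinb2 (-3.44), Cd28 (-1.58), Bcl11a (-0.76) and Igf2bp2 (-0.84), without Mff_Cre 3 for Cd28 (-1.62) and Bcl11a (-0.82), and without Mff_Cre 2 for Igf2bp2 (-1.01).

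Several families that moved with 5 WT libraries did not hold against WT 5. Of 64 histone genes tested 10 fell and 0 rose (median -0.48), but against WT 5 0 of 62 were called by edgeR or DESeq2, with 3 higher and 2 lower at an unadjusted p under 0.05 (median 0.07). Hist1h4d showed the pattern, at 126, 136, 194 and 110 CPM in WT 1 to 4, 33 CPM in WT 5 and 16.5 to 23.6 CPM in Mff_Cre (-2.60, SE 0.45, adjusted p 0.0217, and -0.74, SE 0.23, adjusted p 0.21). Its 8-library call was lost without Mff_Cre 1 (-2.50) or 2 (-2.55), and against WT 5 it passed without Mff_Cre 3 (-0.93). The same held for immediate early genes, the AP-1, EGR and Dusp genes that cells switch on within minutes of handling or stimulation: 3 of 26 fell (median -0.66), and 0 of 25 were called against WT 5 by edgeR or DESeq2, with 7 higher and 1 lower at an unadjusted p under 0.05 (median 0.36). Rgs1, a brake on chemokine receptor signalling, stood at 46.3 to 72.6 CPM in WT 1 to 4, 14.8 CPM in WT 5 and 3.66 to 9 CPM in Mff_Cre (-3.03, SE 0.47, adjusted p 0.0154, and -1.27, SE 0.37, adjusted p 0.175), and without Mff_Cre 1 lost the 8-library call (-2.81). Against WT 5 it passed with any pair of Mff_Cre libraries (-1.72 to -1.05). Ccl4, a chemokine ligand, stood at 51.2 to 101 CPM in WT 1 to 4, 10.4 CPM in WT 5 and 8.76 to 10.3 CPM in Mff_Cre (-2.75, SE 0.56, adjusted p 0.0406, and -0.12, SE 0.24, adjusted p 0.91), again with no 8-library call without any 1 Mff_Cre library (-2.83 to -2.71). For Ccl4 WT 5 sat near Mff_Cre, as it did in depth. For Hist1h4d and Rgs1 it lay below WT 1 to 4 and above every Mff_Cre library. The part of depth in this was not tested.

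Other families were called mainly against WT 5. Of 23 macrophage surface genes 0 rose and 3 fell with 5 WT libraries (median -0.12), and 6 rose and 0 fell against WT 5 (median 0.54), so the median changed sign. Chemokines and their receptors had medians of -0.20 and 0.94, with 0 rises and 1 fall against 5 rises and 0 falls among 22 tested. Of 7 Fc receptors 0 and 5 rose (medians 0.34 and 1.10), of 32 lysosomal genes 1 and 9 rose and 1 and 1 fell (0.14 and 0.64), and of 13 genes of iron and heme handling 0 and 6 rose (0.26 and 0.71). None of these lists had more than 1 member called higher in both comparisons. Ribosomal proteins (84 tested, medians 0.03 and 0.05) and oxidative phosphorylation genes (93 tested, -0.03 and 0.16) had few calls, with 1 rise and 1 fall among the latter with 5 WT libraries and no other edgeR call. Against WT 5, 81 of the 93 stood higher, among them all 13 mitochondrially encoded genes (median 0.38), of which 4 were higher at an unadjusted p under 0.05. DESeq2 called 3 ribosomal genes higher and 1 lower with 5 WT libraries, where 15 were higher and 1 lower at an unadjusted p under 0.05. The remaining lists, among them toll-like receptors, MHC genes, lipid handling and heat shock genes, had at most 1 gene called higher and 1 called lower in both comparisons. The lists had been drawn up with earlier results of these data known, so their direction is no independent evidence.

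Whether the 76 genes follow a shift among kinds of Myeloid cells was examined by gating. Each cell was thinned to 5000 UMIs. It was called macrophage-gated with at least 3 UMIs of C1qa, C1qb and C1qc and fewer than 3 of Mpo, Elane, Prtn3 and Ctsg, and granule-gated in the converse case. The gates are ranges of a sum and not types, and 276 and 494 of 2392 cells lay at 2 to 4 UMIs of the macrophage and the granule sum. Of vEC, 0 in any library reached 3 UMIs of either sum. Macrophage-gated cells made up 68.4%, 64.8%, 40.0%, 46.6% and 30.7% of Myeloid cells in WT 1 to 5, while Mff_Cre 1 to 3 had 35.1%, 43.3% and 40.1%. The means differed by -10.6 percentage points (two-sided exact permutation p 0.339, n = 5 and 3). Granule-gated cells made up 15.2%, 16.9%, 20%, 35.4% and 34.7% in WT and 35.5%, 29.0% and 32.4% in Mff_Cre, a difference of 7.84 percentage points (two-sided exact permutation p 0.25, n = 5 and 3). WT 4 and 5 were within or near the Mff_Cre range, so no shift in these 2 shares was detectable beyond the spread of the WT libraries, whose range is wide. Cells with at least 3 UMIs of both sums made up 5.71% to 9.01% in WT 1 to 4, 19.8% in WT 5 and 21.3% to 23.5% in Mff_Cre (n = 5 and 3, two-sided exact permutation p 0.0179). Cells with neither made up 15.6% ± 10.7 and 5.38% ± 1.55 (SD, n = 5 and 3, two-sided exact permutation p 0.107). Of all cells, Myeloid cells made up 12.7% ± 7.78 in WT and 19.7% ± 6.39 in Mff_Cre (SD, n = 5 and 3, two-sided exact permutation p 0.214).

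**Figure D4:**
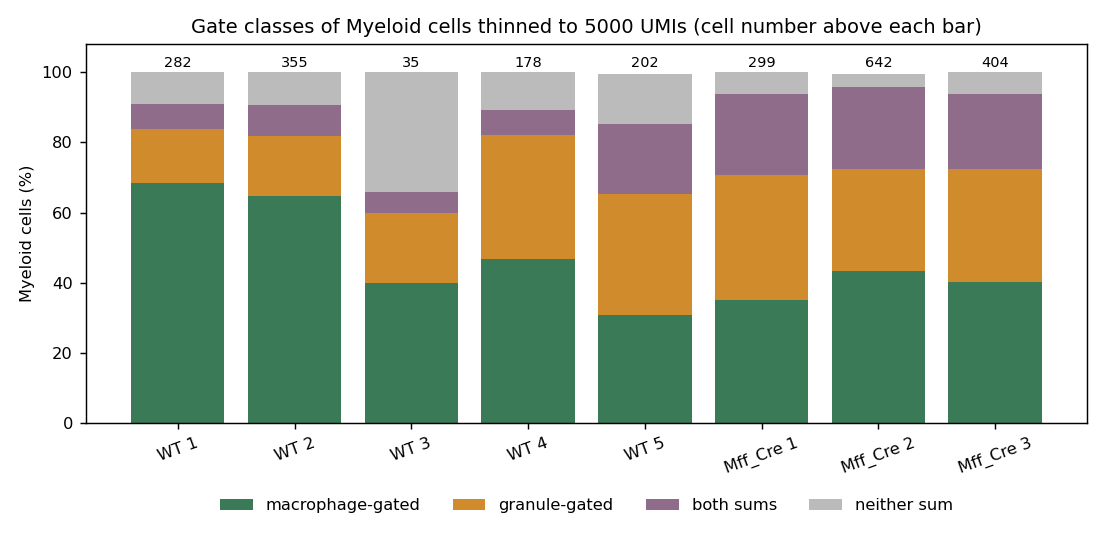
Stacked percentages of Myeloid cells in the macrophage-gated, granule-gated, both and neither classes for each library, with the number of cells above each bar. 5 cells under 5000 UMIs are in no class, and the class with both sums is 19.8% to 23.5% in WT 5 and Mff_Cre against 5.71% to 9.01% in WT 1 to 4.

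Within the gates, in the fits not limited to WT 5, the genes tested kept their direction and part of them were called. Cells with both sums or neither lie outside the gates and are not covered. The gated cells are part of those that chose the genes, so the counts are a description. In macrophage-gated cells, where 1.75% of 10176 genes were called, 65 higher (0.639%) and 113 lower (1.11%), 44 of the 51 rises were tested, 44 were higher and 22 were called, and of the 25 falls 22 were tested, 22 were lower and 13 were called. In granule-gated cells, where WT 3 had too few cells and 3.01% of 9423 genes were called, 172 higher (1.83%) and 112 lower (1.19%), 45 of the rises were tested, 45 were higher and 34 called, and 22 of the falls were tested, 22 lower and 19 called. Counts within gates leave out the gate gene Mpo. In both gates 17 rises and 10 falls were called, among them Ifitm3, Cfp, Anxa2, Lgals1, Lgals3, Clec4a2, S100a10 and Cd63 among the rises and Cd9, Bmyc, Lmo2, Il7r and Ptger3 among the falls. In neither gate were 11 rises and 3 falls called. With macrophage-gated, granule-gated and all other cells weighted to the same shares in every library, 46 rises and 25 falls were called by limma. The median log2 fold change was 1.09 and -1.26 against 1.16 and -1.23 in the sums of all cells. Cells with both sums and with neither were a single class there, so the weights did not even out those shares. With the macrophage-gated share as a covariate all 51 and 25 were called. The calls within gates rested on few libraries: without Mff_Cre 1, 2 or 3 the 178 macrophage-gated calls became 9, 63 or 23 and the 284 granule-gated calls 78, 53 or 142, and without WT 5 they became 1018 and 595. With WT 5 as the sole WT library, 17 rises and 3 falls were called in macrophage-gated cells (0.804% and 0.344% of all genes) and 34 and 13 in granule-gated cells (0.845% and 0.204%).

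Differences between the gates were tested for single genes and not for lists. Ifitm3 stood at 162 to 226 CPM in WT and 364 to 401 CPM in Mff_Cre in macrophage-gated cells (log2 fold change 1.01, SE 0.12, adjusted p 0.00478) and at 105 to 173 and 461 to 480 CPM in granule-gated cells (1.68, SE 0.15, adjusted p 0.000678). The change differed between the gates by -0.66 (SE 0.09, adjusted p 0.00257). Ifitm2 and Ifitm1 showed the same order, with differences of -0.85 (SE 0.17, adjusted p 0.0242) and -1.52 (SE 0.38, adjusted p 0.0776), and Ifitm1 in macrophage-gated cells overlapped between genotypes (10.1 to 100 against 89.0 to 160 CPM). In the fit with WT 5 alone Ifitm3 was called in both gates (0.79, adjusted p 0.0688, and 1.44, adjusted p 0.00504), while Ifitm2 and Ifitm1 were called in granule-gated cells (1.12 and 2.02) and stood at 0.31 (adjusted p 0.613) and 0.21 (adjusted p 0.893) in macrophage-gated cells. Lyz2 rose in granule-gated cells (1.26, SE 0.31, adjusted p 0.0805), stood 0.44 higher in macrophage-gated cells (SE 0.18, adjusted p 0.334), and differed between gates by -0.93 (SE 0.19, adjusted p 0.0277). Ccnd2 fell in granule-gated cells from 192 to 474 CPM to 77.5 to 111 CPM (-1.85, SE 0.26, adjusted p 0.00761), while in macrophage-gated cells it stood at 99.4 to 199 and 94.3 to 136 CPM (-0.42, SE 0.20, adjusted p 0.4). For Ccnd2 the difference between gates was 1.43 (SE 0.14, adjusted p 0.000213). Across all genes 1.52% differed between the gates (0.333% positive, 1.18% negative), and of the 76 genes 11 rises and 4 falls did. For the fall of Cd9 the order was the reverse, with -1.35 in macrophage-gated and -0.73 in granule-gated cells (difference -0.55, SE 0.13, adjusted p 0.0516).

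Stfa1 rose in macrophage-gated cells, from 38.8 to 73.5 CPM to 166 to 270 CPM (1.79, SE 0.18, adjusted p 0.00197). In granule-gated cells it stood at 283 to 950 CPM in WT and 1063 to 1374 CPM in Mff_Cre, a difference of 1.24 (SE 0.34, adjusted p 0.105) that missed the threshold although the libraries did not overlap. Against WT 5 it was called in both gates (1.73 and 2.14). The median of the stefins and cystatins tested was 1.72 in the sums of all cells, 0.78 in macrophage-gated cells (1 of 5 called) and 0.40 in granule-gated cells (0 of 9 called). For the granule genes it was 1.09 (18 tested), 0.44 (9) and 0.24 (11), and for secondary and later granule genes 2.40 (8), 2.19 (4) and 0.24 (5). Different members were tested in each, so these medians are not a measure of what the gates remove. Mmp9 had mean levels of 1.43 CPM in WT and 15.7 CPM in Mff_Cre in macrophage-gated cells. In granule-gated cells its means were 0.10 and 0.20 CPM. S100a8 in macrophage-gated cells stood at 0 to 1.15 CPM in WT and 15.9 to 25.1 CPM in Mff_Cre (4.98, SE 0.38, adjusted p 0.000293), and in granule-gated cells at 0.309 to 970 and 107 to 1007 CPM (0.24, SE 1.33, adjusted p 0.959). S100a8 and Lyz2 were also the only 2 of 12205 genes called between genotypes in vEC (0.0164%), cells named as endothelial, at log2 fold changes of 4.01 (SE 0.57) and 2.61 (SE 0.35) with adjusted p 0.0909 for each. The part of such free RNA in the low S100a8 level of macrophage-gated cells was not tested.

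**Figure D5:**
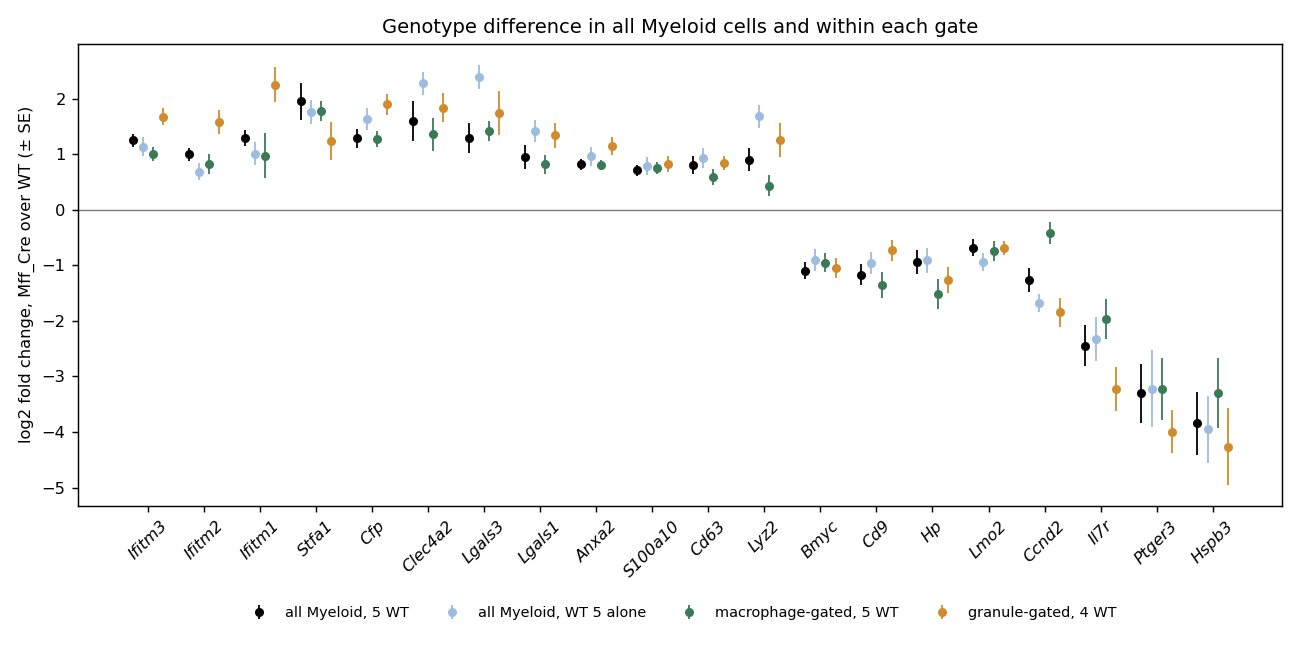
Log2 fold change of Mff_Cre over WT (± SE derived from edgeR's F statistic) for 20 genes, in all Myeloid cells with 5 WT libraries or WT 5 alone and within macrophage-gated and granule-gated cells. All points of a gene lie on the same side of 0, with Ccnd2 (-0.42 and -1.85) and Ifitm1 (0.98 and 2.25) among the genes whose gates lie far apart.

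The rises were compared with EMP, the progenitors of the same libraries. In EMP 4.74% of 9172 genes were called, 246 higher (2.68%) and 189 lower (2.06%). Of the 51 rises 35 were tested there, 34 were higher and 19 called, and of the 25 falls 16 were tested, 14 lower and 8 called. Against WT 5 alone Ifitm1, Ifitm2, Ifitm3 and S100a10 were also called higher in EMP (3.96, 1.48, 1.29 and 1.38). With 5 WT libraries Ifitm2 rose more in EMP than in Myeloid cells (1.57, SE 0.09, and a difference of -0.56, SE 0.10, adjusted p 0.0173), as did S100a10 (1.20, SE 0.11, and -0.49, SE 0.09, adjusted p 0.0257). Ifitm3 rose in EMP by 0.83 (SE 0.16, adjusted p 0.0297), and the difference from Myeloid cells, 0.42 (SE 0.19), had an adjusted p of 0.452. Cd9 rose by 0.33 (SE 0.09, adjusted p 0.0857) in EMP, with 0.34 (adjusted p 0.95) against WT 5, and fell in Myeloid cells, a difference of -1.5 (SE 0.17, adjusted p 0.00045). Runx1 stood 0.26 higher in EMP (SE 0.09, adjusted p 0.184) and differed from Myeloid cells by -0.70 (SE 0.10, adjusted p 0.00444). In all, 0.867% of 11070 genes differed between Myeloid cells and EMP, 0.217% with a positive and 0.65% with a negative difference. In vEC 1 of 32 rises tested was called and 28 were higher, and 0 of 15 falls was called by edgeR, with 1 higher and 3 lower at an unadjusted p under 0.05, and 10 were lower. Myeloid cells and vEC differed in 0.914% of genes (0.426% positive, 0.488% negative), among them Ifitm3, Ccnd2 (-1.51, SE 0.18, adjusted p 0.0039), Bmyc (-0.85, SE 0.13, adjusted p 0.0139), S100a10 (0.89, SE 0.11, adjusted p 0.00424), Anxa2 (0.81, SE 0.14, adjusted p 0.024), Cd63 (0.82, SE 0.14, adjusted p 0.0216) and Lpl (0.84, SE 0.15, adjusted p 0.0302).

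Antibody tags gave a readout of surface protein in 4 WT and 3 Mff_Cre libraries, since WT 4 had no tag counts. Levels were taken as the log2 ratio of the mean tag count per Myeloid cell to that per endothelial cell of the same library. CD27, a TNF receptor family member of progenitors, stood at 1.25, 1.00, 0.66 and 0.63 in WT 1, 2, 3 and 5 and at -0.21, -0.07 and -0.003 in Mff_Cre 1 to 3. The groups did not overlap (0.88 ± 0.29 and -0.09 ± 0.11, SD, n = 4 and 3, two-sided exact permutation p 0.0286, the smallest that 4 against 3 libraries allow, and 0.143 after Benjamini-Hochberg adjustment over 5 tags). Mean CD27 counts per Myeloid cell were 61.8, 55.8, 21.3 and 4.36 in these WT libraries and 3.17, 1.46 and 1.31 in Mff_Cre. WT 5 and Mff_Cre were thus low in counts, with endothelial means of 2.82, 3.68, 1.53 and 1.31. CD43, the sialomucin of blood cells, stood at 2.83, 2.74, 3.48 and 4.51 in WT and 5.16, 5.47 and 5.02 in Mff_Cre, again without overlap but with WT 5 nearest to Mff_Cre (n = 4 and 3, two-sided exact permutation p 0.0571, adjusted 0.143). CD41, CD117 and CD45 had permutation p of 0.257, 0.314 and 0.943 (two-sided exact tests, n = 4 and 3). No tag passed the adjusted threshold. With medians in place of means CD117 differed by -0.73 (exact permutation p 0.0286) and CD27 by -0.70 (exact permutation p 0.114), so which tag stood apart depended on the summary. CD44 was counted in WT 5 and Mff_Cre alone, at 6.20 and 6.03 ± 0.28 (SD, n = 3).

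Promoters of the 76 genes were searched, on both strands of the 250 bases before each start, for TGACAG, the core bound by Meis proteins, for TGATTGAC, the composite of Pbx and Meis or Hox proteins, for TTCNNNGAA, the STAT element, and for the interferon-stimulated response element. RefSeq gave 46 promoters for 41 of the rises and 23 for 18 of the falls. TGACAG was in 7 of 46 promoters of rises (15.2%), those of Lgals3, Anxa2, Siglece, Idh1, Mcemp1, Rtn1 and Cdk2ap2, in 0 of 23 promoters of falls, and in 15.9% of 32851 promoters in all. TGATTGAC was in 1 of 46 and 0 of 23 (0.691% of all), and TTCNNNGAA in 3 of 46 and 4 of 23 (7.02% of all). The interferon-stimulated element was in 1 of 46, the promoter of Ifitm2 shown above, and in 0 of 23 (2.98% of all). The share among the rises was thus near that of all promoters for the Meis core. A match is a description of letters, and its absence from this window says nothing of binding elsewhere.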

How the data were processed

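Droplet libraries of RNA and antibody tags were made from CD31-positive cells of 8 pools of embryos, and per the labels and the study's methods the authors aligned them with Cell Ranger 3.0.2 to mm10, kept cells with over 2000 genes, integrated them and named clusters. The deposited table holds raw UMI counts of RNA and tags with the authors' cluster names. Myeloid counts were summed per library. Libraries of 1 genotype are pools of embryos, and p-values measure the spread between such pools.

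The edgeR package (4.0.16, R 4.3.3) was used for tests of these sums (TMM, filterByExpr, quasi-likelihood F test, Benjamini-Hochberg adjusted p under 0.1). The SE of a log2 fold change was derived as its absolute value over the square root of the F statistic. Fits used 5 WT and 3 Mff_Cre libraries, or WT 5 alone, where the spread came from the Mff_Cre libraries. The same fit was run within gates and in EMP and vEC. Differences in effect were tested as interactions with library as a block, chosen after seeing the data. Shares and tags were compared by two-sided exact permutation over libraries (56 or 35 splits). Gates needed 3 UMIs in cells thinned to 5000 UMIs, and a library needed 10 gated cells. Doublets were marked with Scrublet (scanpy 1.11.5), which called 50 Myeloid cells, and were kept in the main fits.

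Members and gene lists were chosen with earlier results of these data known. Named were Meis1, the 10 largest rises and up to 10 largest falls (6 passed) called in both comparisons without overlap at a mean log2 CPM of at least 5, list members called in both, up to 4 members per list with the smallest p, and marker genes. Ptger3, Hspb3, Cd28, Serpinb2, Lgals1, Pglyrp1, Bcl11a and Igf2bp2 were added after their values were seen.

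Changed genes were simulated only above a minimum mean level, WT 5 was given the same spread as Mff_Cre, and no depth or batch difference was simulated. The rates that follow do not cover lower genes or such differences. On simulated counts with 50 changed genes per fold, the fit of 8 libraries called 22%, 82%, 100% and 100% of genes changed by 0.5, 1.0, 1.5 and 2.0 (log2), and 12.1% of its calls were false. Against WT 5 alone it called 12%, 68%, 90% and 96%, with 7.64% false.

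Alternatives were DESeq2 1.42.0, limma 3.58.1, RLE scaling, no filter, other thresholds, doublets or late granule cells left out, thinning, equal cell numbers, depth or gate share as covariates, equal gate mix, other gates and each library left out. The fits by depth class, without a block, without weighting, without late granule cells, by the larger sum and, against WT 5, with equal cell numbers were added after seeing the data. Same-numbered libraries did not deviate together (r of -0.22, 0.24 and 0.14). WT 4 had no tag counts. Some genes are not reported here.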

Additional observations from a re-analysis of the deposited data

Results flagged for a closer look

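Of 63 groups of WT libraries checked for a single value far from the others, 10 had one, where chance gives about 1 in 20. WT 5 stood apart for Ifitm2 (185.9 CPM), Ly6e (318.4 CPM) and the share of cells with both gate sums (19.8%). WT 3, with 35 Myeloid cells, stood apart for Tfec (33.41 CPM), Il7r (28.8 CPM), Ptger3 (24.77 CPM), Hspb3 (23.62 CPM), Serpinb2 (14.98 CPM) and the share of cells with neither sum (34.29%). WT 2 held the sole Camp UMI of the WT libraries (0.06195 CPM).

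The genotype effect differed between macrophage-gated and granule-gated cells in 14 of the 53 genes followed, as a log2 difference tested by an interaction term. It was -1.521 for Ifitm1, -0.6567 for Ifitm3, -0.8451 for Ifitm2, -0.6277 for Gpx3, -0.4337 for Ucp2, -0.9332 for Lyz2, -1.684 for Siglece, -0.7353 for Anxa6, -0.569 for Lgals1, -1.909 for Rgs1 and -0.5546 for Cd9. It was 1.425 for Ccnd2, 0.6438 for Ctr9 and 5.549 for S100a8. A negative difference in a gene that rose means a larger rise in granule-gated cells.

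Between Myeloid cells and EMP it differed in 7 genes, by -0.565 for Ifitm2, -1.504 for Cd9, -0.4897 for S100a10, -1.674 for Rgs1, -0.6984 for Runx1, 2.483 for Pglyrp1 and 9.093 for Camp, the last resting on few cells. Between Myeloid cells and vEC it differed in 13 genes. The difference was 1.273 for Ifitm3, 0.8125 for Ifitm2, 0.817 for Cd63, 0.8934 for S100a10, 0.8056 for Anxa2, 0.8373 for Lpl and 2.213 for Pglyrp1. It was -1.514 for Ccnd2, -0.8375 for Cd9, -0.8453 for Bmyc, -0.6147 for Ctr9, -1.619 for Lyz2 and -0.91 for Igf2bp2.

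Outside the measured genes, the RNA row named CreERT2 held 34 UMIs in the Mff_Cre libraries and 0 of 228689030 UMIs in WT.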

How the results depend on the processing

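With 5 WT libraries the 374 calls became 584 with DESeq2, 215 with cells thinned to 5000 UMIs, 72 with the same number of cells per library, 612 with the macrophage-gated share as a covariate, 186 at an adjusted p under 0.05 and 14 with Bonferroni adjustment. They became 3 with median depth per cell as covariate and 8 with depth class, which fall together with genotype except for WT 5. Against WT 5 the 253 calls became 15 with equal cell numbers, 674 without a filter, 86 with thinning, 143 at 0.05 and 22 with Bonferroni. The 76 genes called in both became 4, 166, 24, 33 and 0 in the same order, the last with edgeR. Macrophage-gated calls (178) became 112 with a gate at 2 UMIs and 287 without a filter, and granule-gated calls (284) became 556 and 613, 547 with the larger sum as gate and 103 with WT 5 as the only WT library. Leaving out 1 library gave 44 to 1421, 378 to 945 and 37 to 80 calls with 5 WT libraries, with WT 5 and in both, and 9 to 1018 and 53 to 595 in the gates. A lone WT 5 is assumed to vary like the Mff_Cre libraries. The difference in macrophage share turned to 0.0643 percentage points without thinning, and ranged from -15.5 to -6.02 with 1 library left out. The CD41 difference turned to -0.148 with medians and -2.70 as a share of tags. That of CD45 ranged from -0.851 to 0.335 with 1 library left out, crossing 0 at 0.110, 0.0028, 0.0676 and 0.313. Bhlhe41 turned to 0.26 against WT 5 with equal cell numbers. For single genes, 929 of the values with 5 WT libraries kept direction and side of the threshold, 10 gained and 205 lost the call, and against WT 5 419 kept them, 15 gained and 76 lost it. With libraries 1 to 3 of each genotype, 1333 genes were called with the replicate number as a block and 1335 without, and the numbers did not pair the libraries. The causes were not tested. RLE, doublets left out and late granule cells left out stayed within 1.5 times (374, 363 and 300 with 5 WT libraries).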
